A study of Mus musculus with 4 samples.

Results

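The microRNA family of miR-34 and miR-449 was followed here through its 7 assays on the mouse microRNA cards, out of 750 microRNA (miRNA) assays in all: mmu-miR-34a, mmu-miR-34b-3p, mmu-miR-34b-5p, mmu-miR-34c, mmu-miR-449a, mmu-miR-449b and mmu-miR-449c, written below without the mouse prefix. The members were chosen by their miRBase 14 names in the deposited table, and each name matched 1 well. The study measured lung tissue (right lungs) by quantitative PCR in 4 groups, with 1 library each: adult hyperoxia, adult room air, neonatal hyperoxia and neonatal room air. Adults were 2 months old and neonates under 12 h old at the start, and the neonatal lungs are labelled day 3. Hyperoxia was 95% oxygen and exposure lasted 72 h in every group, with nursing dams moved between atmospheres every 24 h. No genotype, strain, sex or number of animals per library is given in the sources used here. The comparisons follow the stated purpose of the series, miRNA levels in lung development and in hyperoxia. With 1 library per group, no pairwise difference can be checked against replicates. A level in lung tissue cannot tell fewer cells of a type from less of the miRNA per cell.

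miRNAs pair with messenger RNAs mainly through their seed, the bases near the 5′ end, and lower the output of those messages. miR-34a is a textbook transcriptional target of the tumour suppressor p53, which is activated by DNA damage, and its targets include cell cycle and survival genes. miR-34b and miR-34c come from a second p53-responsive locus. That locus and the miR-449 cluster, which lies in the gene Cdc20b, are known for high expression in multiciliated airway cells, where they act in the formation of motile cilia. Neither p53 nor any ciliary messenger RNA was measured here, so the names of these programmes rest on background knowledge alone.

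The mature sequences show why these miRNAs are read as 1 family: of the 5 members with a sequence here, 4 share the seed printed in capitals (bases 2 to 8). Sequences are from RefSeq (GRCm38.p6), where 5 of the 7 members were matched, and miR-34c and miR-449b are given by name only. A miRBase 14 name without an arm was read as the 5′ arm.
miR-34a: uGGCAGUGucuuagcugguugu
miR-34b-5p: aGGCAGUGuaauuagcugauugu
miR-449a: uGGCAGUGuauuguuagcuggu
miR-449c: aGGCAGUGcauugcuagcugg
The same seed stood in 4 of 1679 mature names in that source, which are these 4. miR-34c and miR-449b were not among the 1679, so their seeds were not read. After the seed the miRNAs diverge. miR-34a and miR-34b-5p differed by 4 edits (bases changed, added or removed), miR-449a and miR-449c by 4, and miR-34a and miR-449a by 6. miR-34b-3p is the opposite arm of the miR-34b hairpin and has another seed, which it shares with miR-34c*, the opposite arm of miR-34c. These 2 sequences are shown because their assays report on the miR-34b/c locus independently of the family seed.
miR-34b-3p: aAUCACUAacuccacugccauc
miR-34c*: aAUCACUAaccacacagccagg

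The family sits at 3 places in the genome (GRCm38.p6). Mature miR-34a lies at chr4:150068473-150068494 on the plus strand. Mature miR-34b-5p lies at chr9:51103610-51103632 on the minus strand, and the hairpins of miR-34c and miR-34b together span 612 bases within the bounds of Btg4. Mature miR-449c and miR-449a lie at chr13:113036008-113036028 and chr13:113037549-113037570 on the plus strand. The hairpins of miR-449c, miR-449b and miR-449a span 1642 bases inside Cdc20b, and that of miR-449c begins 604 bases after the transcript start used for the promoter window below. The gene record of Cdc20b itself begins further upstream, at base 113034975. The window around that transcript start (chr13:113035129-113035428, plus strand, 250 bases before it and 50 after) is shown as the nearest promoter to the miR-449 hairpins.
Cdc20b promoter: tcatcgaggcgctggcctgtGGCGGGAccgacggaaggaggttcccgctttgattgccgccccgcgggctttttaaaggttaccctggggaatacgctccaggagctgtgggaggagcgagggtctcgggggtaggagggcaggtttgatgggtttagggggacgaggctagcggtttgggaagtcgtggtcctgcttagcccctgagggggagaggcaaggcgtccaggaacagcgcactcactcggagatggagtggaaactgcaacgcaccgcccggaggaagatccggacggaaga
Capitals mark the E2F motif GGCGGGA, searched on both strands and found 1 time. It occurs in 11.3% of 32851 promoter windows of this length. The RFX motif GTTGCC, searched in the same way, occurs in 12.5% of windows and not in these letters.

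All values below are log2 levels relative to the small nucleolar RNA snoRNA202, the negative of the deposited delta Ct, so that a higher value means more RNA. The threshold cycle (Ct) is the PCR cycle at which a well crosses detection. Assays were compared if both libraries had a Ct of at most 35, and 6 of the 7 members met this in all 4. miR-449b did not. Levels of different assays were not set against each other, since their PCR efficiencies may differ, apart from 1 sum over epithelial markers given below. The number of detected assays was 468 in adult hyperoxia, 468 in adult room air, 507 in neonatal hyperoxia and 477 in neonatal room air. Error was estimated from 4 control RNAs read on both cards of a library, each relative to snoRNA202 of its card. They gave a technical SD of a difference of 0.26 log2 for oxygen in neonates, 0.33 for oxygen in adults, 0.65 for age in room air and 0.95 for age in hyperoxia, which leaves out the spread between animals.

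miR-34a, the p53 target, was lowest in the neonatal room air lung. Its log2 level was -6.22 in adult hyperoxia, -6.33 in adult room air, -6.34 in neonatal hyperoxia and -7.52 in neonatal room air. On this scale the first 3 libraries lay within 0.11 log2 of each other and neonatal room air stood apart below them. The closeness of the first 3 depended on the scaling, while neonatal room air was lowest under all 6: with library means as reference, miR-34a stood at 4.28 in adult hyperoxia, 3.51 in adult room air, 2.91 in neonatal hyperoxia and 1.89 in neonatal room air. After hyperoxia the neonatal library was higher by 1.19 log2 (2.28-fold), which is 4.64 technical SDs. Over the 6 scalings this difference ran from 0.985 to 1.19 log2. In adults the oxygen difference was 0.10 log2, or 0.31 technical SDs, and it reached 0.77 (2.33 technical SDs) with library means. Since neonatal room air is the low side of both, the age difference in room air, 1.195 log2, is not separate evidence from the neonatal oxygen difference. In hyperoxia the age difference was 0.11 log2 on the deposited scale and up to 3.09 log2 on the others, the highest with U6.

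**Figure D1:**
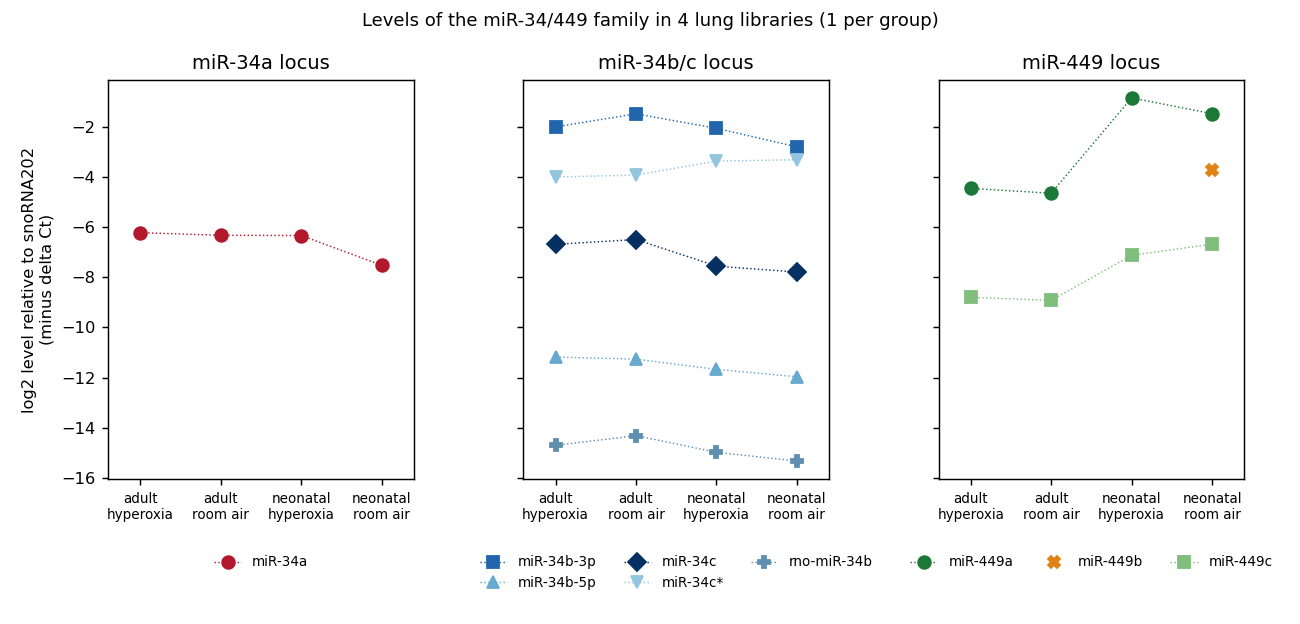
Log2 level relative to snoRNA202 (vertical axis) of each assay in the 4 libraries (horizontal axis, 1 point per library, no replicates), by locus; dotted lines only join points of 1 assay. miR-34a is low in neonatal room air (-7.52), miR-449a is lower in both adult libraries (-4.46 and -4.65) than in both neonatal ones (-0.85 and -1.48), and miR-449b has 1 point because it was not detected in the other 3 libraries.

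miR-34a was the only member past 2-fold for oxygen in neonates, 1 of 6 measured, where 22.2% of all 469 compared assays passed 2-fold in either direction. The family median was 0.46 log2, against 0.13 over all assays. In adults 0 of 6 passed 2-fold, where 13.2% of 448 assays did, and the medians were 0.09 for the family and -0.14 for all assays. The miR-34a difference in neonates ranked 26th from the highest among the 267 compared assays of its card, a place that no choice of reference RNA changes. With levels centred on each card's median, the difference was 0.985 log2, just short of 2-fold. The difference between the adult and the neonatal oxygen difference of miR-34a was -1.08 log2, with a technical SD of 0.42. It was -0.25 when libraries were centred on their means. It rests on 1 library per group and could not be tested.

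The other members differed less between the neonatal libraries. miR-34b-3p was higher by 0.74 log2, miR-449a by 0.63, miR-34b-5p by 0.29 and miR-34c by 0.24, while miR-449c was lower by 0.45. Of these, miR-34b-3p and miR-449a exceeded 2 technical SDs on the deposited scale. For miR-449a the size fell to 1.80 technical SDs with library means and 1.67 with card medians. Other members passed 2 under 1 other scaling each, miR-34b-5p with U6 (3.11) and miR-449c, lower, with card medians (2.05). Relative to members on the same card, where the reference RNA cancels, miR-34a changed by 0.95 log2 more than miR-34c and by 0.45 more than miR-34b-3p. The change of miR-449a minus that of miR-34a was -0.56 log2. In adults, after oxygen, miR-34b-3p was at -0.52, miR-34c at -0.19, miR-34b-5p at 0.08, miR-449c at 0.12 and miR-449a at 0.19. All were within 2 technical SDs of 0 on the deposited scale. The miR-449a difference was above 0 under all 6 scalings and reached 0.86 log2 (2.60 technical SDs) with library means. With snoRNA202 of their own card as reference, miR-34b-5p was at -0.14 and miR-449c at -0.10.

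**Figure D2:**
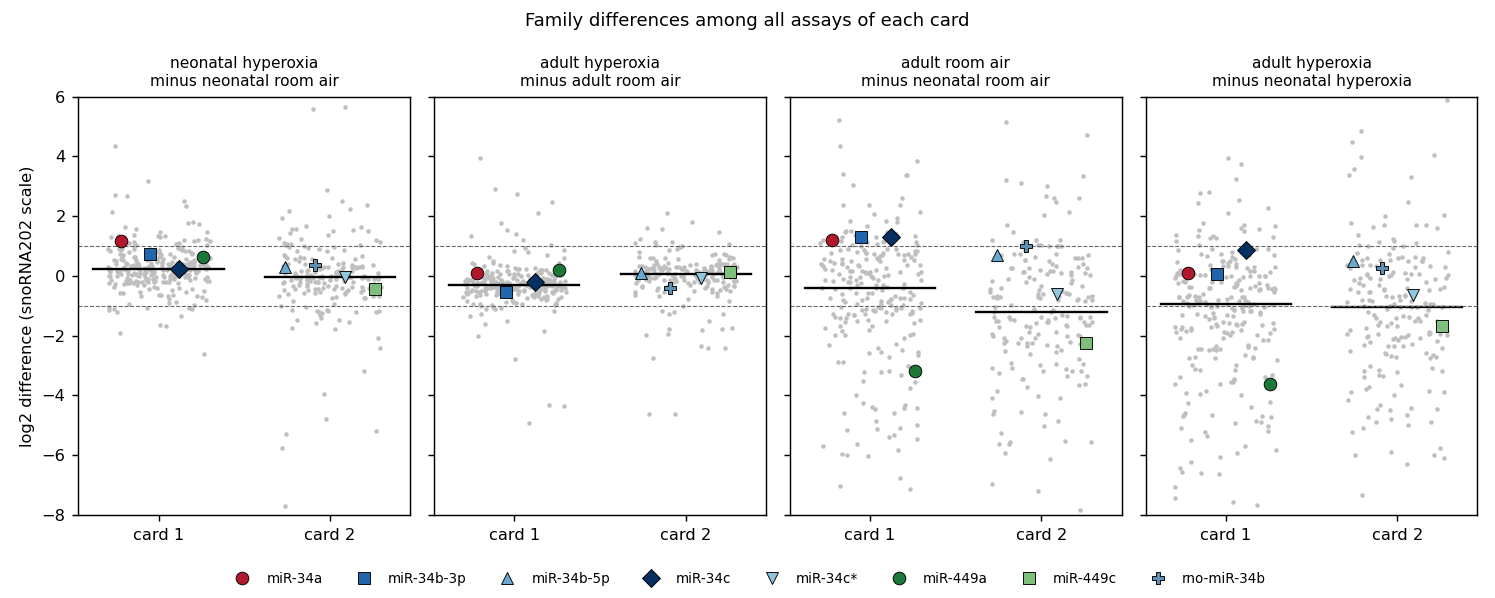
Log2 differences on the snoRNA202 scale (vertical axis) in the 4 comparisons, for all compared assays (grey points) and the family (coloured symbols), by card; black lines are card medians and dashed lines mark 2-fold, and 26 points over all panels lie beyond the axis, which runs from -8 to 6. In the age comparisons miR-449a (-3.17 and -3.61) and miR-449c (-2.24 and -1.67) lie below the medians of their cards while the miR-34 members lie above them.

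The miR-34b/c locus was read by 3 members and by 2 further assays, miR-34c* and an assay named for rat miR-34b. The log2 level of miR-34c was -6.69 in adult hyperoxia, -6.50 in adult room air, -7.55 in neonatal hyperoxia and -7.79 in neonatal room air. Both adult libraries were above both neonatal ones. miR-34b-3p stood at -2.01 in adult hyperoxia, -1.48 in adult room air, -2.06 in neonatal hyperoxia and -2.80 in neonatal room air. Its adult and neonatal hyperoxia levels differed by 0.06 log2, the lowest of the 6 scalings, which reached 3.03 with U6. miR-34b-5p stood at -11.18 in adult hyperoxia, -11.26 in adult room air, -11.67 in neonatal hyperoxia and -11.96 in neonatal room air, again with both adult libraries higher.

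In room air the adult minus neonatal differences of these 3 were 1.297 log2 for miR-34c, 1.32 for miR-34b-3p and 0.70 for miR-34b-5p. The first 2 were near 2 technical SDs and the last near 1. In hyperoxia the differences were 0.87, 0.06 and 0.49, all below 1 technical SD on the deposited scale. The rat-named miR-34b assay gave 1.01 in room air and 0.28 (0.275) in hyperoxia. The exception was miR-34c*, at -0.61 in room air and -0.63 in hyperoxia, the opposite sign to its partner strand miR-34c. Its sign depended on the scale: the difference lay above 0 under 3 of 6 scalings in each atmosphere, whereas those of miR-34a, miR-34b-3p, miR-34b-5p and miR-34c lay above 0 under all 6. On the deposited scale it was still above the median of its card by 0.59 log2 (0.585) in room air and by 0.41 in hyperoxia.

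The miR-449 locus went the other way with age. The log2 level of miR-449a was -4.46 in adult hyperoxia, -4.65 in adult room air, -0.85 in neonatal hyperoxia and -1.48 in neonatal room air. That of miR-449c was -8.80 in adult hyperoxia, -8.92 in adult room air, -7.13 in neonatal hyperoxia and -6.68 in neonatal room air. For both assays both adult libraries lay below both neonatal ones. How many other assays separated in this way was not counted. At least 2-fold lower in the adult were 44.1% of all compared assays in room air and 49.3% in hyperoxia. miR-449a was lower in adults by 9.02-fold in room air and 12.2-fold in hyperoxia, and miR-449c by 4.73-fold and 3.19-fold. The miR-449a differences were 4.90 and 3.80 technical SDs, and those of miR-449c 3.46 and 1.76. Both stayed below 0 under all 6 scalings, but the folds shrank to 1.44-fold and 1.55-fold for miR-449a with U6 and to 1.48-fold and 1.20-fold for miR-449c with library means.

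In a model of age and oxygen fitted to the 426 assays detected in all 4 libraries (limma), miR-449a fell with age by 3.39 ± 0.28 log2 (SE; Benjamini-Hochberg adjusted p = 0.0201) and miR-449c fell by 1.96 ± 0.30 (adjusted p = 0.0423). In the same limma fit miR-449c was not called with library means (adjusted p = 0.324), card medians (0.0812), U6 (0.0647) or no detection filter (0.103), and miR-449a was not called with U6 (0.174) or no detection filter (0.0589). So 2 of 6 measured members were called lower, where 27.9% of all assays were, and 0 of 6 were called higher, where 4.46% were. The miR-34 members were not called: the fitted age effects were 1.08 ± 0.27 for miR-34c (adjusted p = 0.0835), 0.65 ± 0.41 for miR-34a (0.316), 0.69 ± 0.46 for miR-34b-3p (0.334) and 0.60 ± 0.25 for miR-34b-5p (0.175). At an unadjusted p under 0.05, 3 of 6 members passed, as did 211 of all 426 assays. With U6 as reference 0 members were called lower and 4, the miR-34 members, higher. Nothing says that a library is more than 1 animal, and the fit has 1 residual degree of freedom per assay. That 1 is the difference between the adult and the neonatal oxygen difference, which the additive model counts as error. The error was combined with a variance estimated over all 426 assays. The p-values therefore do not measure the spread between animals, and the error may be technical.

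For oxygen the same fit called 0 of 6 members, and 0% of all 426 assays, with 13 of 426 at an unadjusted p under 0.05 and 0 of the family among them. The largest fitted oxygen effect in the family was that of miR-34a, 0.65 ± 0.41 log2 (limma, adjusted p = 0.963).

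By pairwise difference in room air, 3 of 6 members (miR-34a, miR-34b-3p and miR-34c) were at least 2-fold higher in the adult, where 15.9% of 435 assays were, and 2 of 6 (miR-449a and miR-449c) at least 2-fold lower, where 44.1% were. In hyperoxia 0 of 6 were 2-fold higher, where 10.9% of 450 assays were, and the same 2 were lower, where 49.3% were. The share of lower members is therefore no higher than among all assays. The adult libraries were lower across the table, with a median of -0.72 log2 in room air and -0.98 in hyperoxia. Among all compared assays, counted from the highest, miR-449a ranked 363rd of 435 in room air and 379th of 450 in hyperoxia, while miR-34c ranked 48th and 56th.

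**Figure D3:**
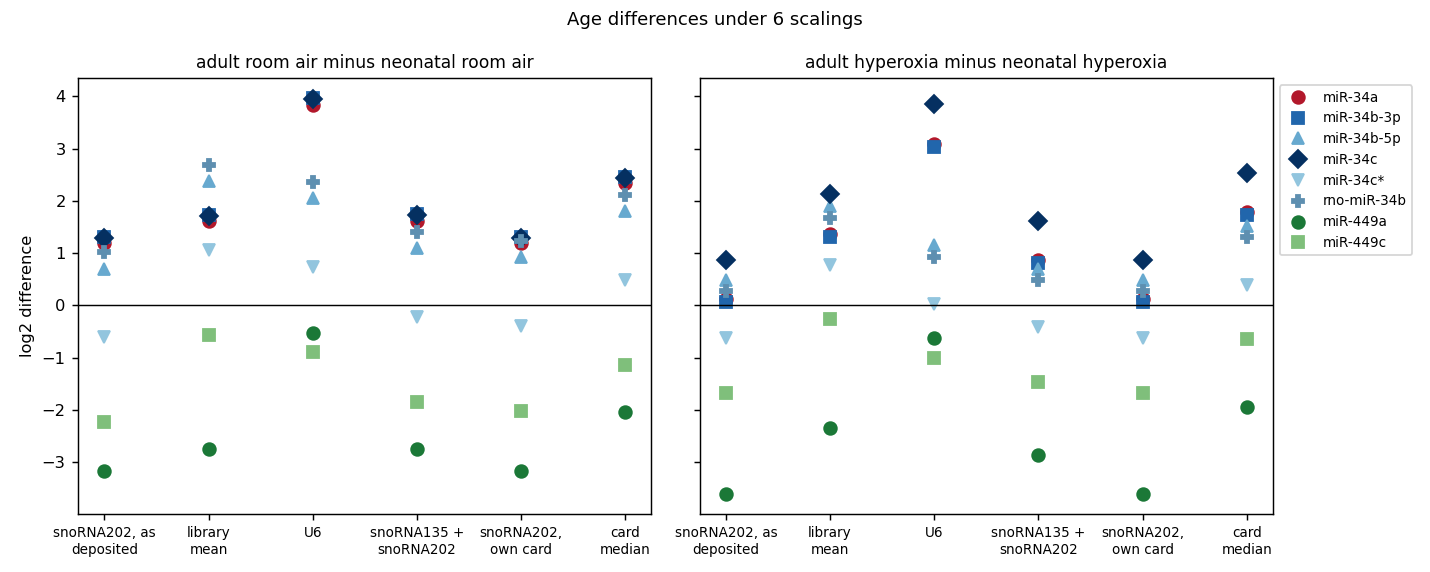
Adult minus neonatal log2 difference (vertical axis) of each assay under 6 scalings (horizontal axis), in room air (left) and hyperoxia (right), 1 library per group. miR-449a and miR-449c lie below 0 under all 6, from -3.17 to -0.53 for miR-449a in room air, the miR-34 members lie above 0 under all 6, and miR-34c* crosses 0.

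The gap between the loci did not depend on the reference, because assays of 1 card share it. In room air the age change of miR-449a minus that of miR-34a was -4.37 log2, a 20.6-fold gap. Against miR-34b-3p the gap was -4.49 and against miR-34c -4.47, or 22.5-fold and 22.2-fold. In hyperoxia, in libraries that the room air pair does not share, the gaps were -3.72, -3.67 (12.7-fold) and -4.48 (22.3-fold). The gap between miR-449a and miR-34c was thus nearly the same in both atmospheres. For the second card, miR-449c minus miR-34b-5p was -2.94 in room air and -2.17 in hyperoxia. Against rat-named miR-34b the values were -3.25 and -1.95, and against miR-34c* -1.63 and -1.04. All 12 such gaps for age were below 0, but they reuse the same miR-449a and miR-449c values and are not independent. How often other assay pairs of a card show such gaps was not counted. The corresponding gaps for oxygen lay between -0.80 and 0.715 on both sides of 0.

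**Figure D4:**
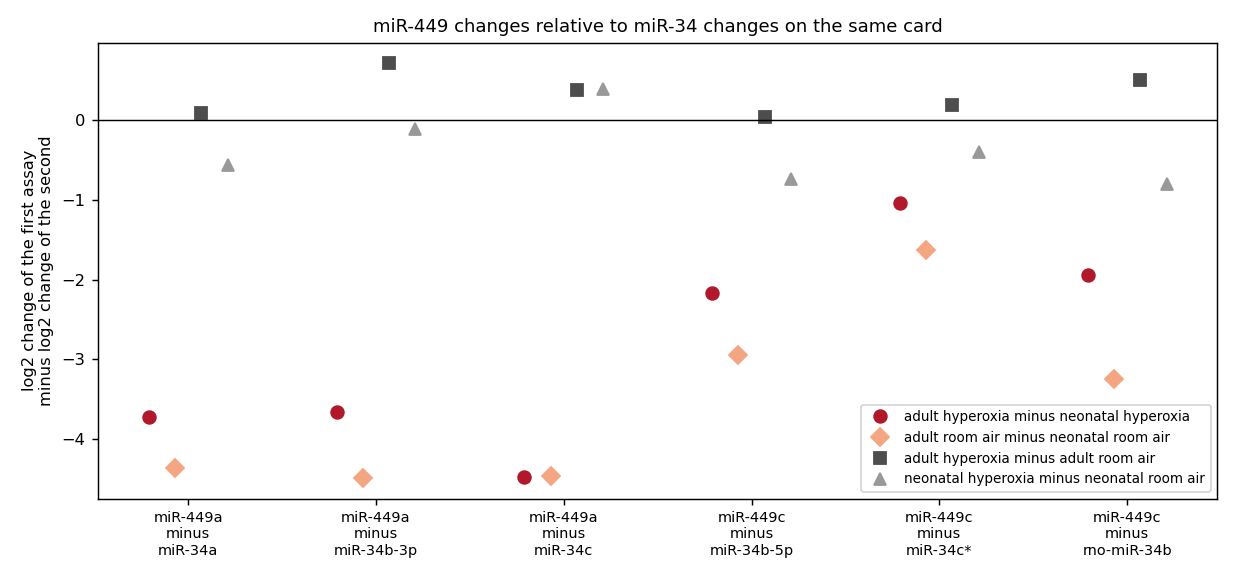
Log2 change of a miR-449 assay minus the log2 change of a miR-34 assay on the same card (vertical axis), for 6 assay pairs (horizontal axis) and the 4 comparisons (symbols), 1 library per group. The age comparisons (red and orange) lie between -4.49 and -1.04, and the oxygen comparisons (grey) lie between -0.80 and 0.715.

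The miR-449b well moved by far more cycles than the assays of its neighbours in the genome. Its Ct was 40 (no crossing) in adult hyperoxia, 40 in adult room air, 38.9 in neonatal hyperoxia and 17.8 in neonatal room air. With a Ct of 35 as the bound, its log2 difference from neonatal room air was -18.45 or lower in adult hyperoxia, -17.86 or lower in adult room air and -17.76 or lower in neonatal hyperoxia. Over the same libraries the Ct of miR-449a moved by 1.77 (1.765) cycles in adult hyperoxia, 2.55 in adult room air and -1.15 in neonatal hyperoxia relative to neonatal room air. The Ct of miR-449c moved by 0.58, 0.37 and -0.25 cycles. The miR-449b shift was 22.2, 22.2 and 21.2 cycles. Neither neighbour moved by a comparable number of cycles, and miR-449b is left out of every count of differences above.

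On the card, miR-449b is well J18, next to miR-449a in J17. In the 8 wells around it, the Ct in neonatal room air minus the median of the other 3 libraries ran from -3.97 (miR-379) to 2.44 (miR-497), against -22.2 in J18. Across the 22 other miRNA wells of row J, the neonatal room air Ct correlated with the mean of the other libraries at r = 0.941, and at 0.804 with J18 included, across wells that are not independent replicates. No other well of that library held the same Ct. Over all 750 assays, 2 crossed by cycle 20 in a single library and stayed above cycle 35 in the other 3, namely miR-449b and, in adult room air, miR-330. The reverse, a single library missing an assay that the other 3 read by cycle 20, also occurred for 2, miR-191 in neonatal hyperoxia and miR-155 in neonatal room air. An assay that the files list as mmu-miR-449b under another number carries the miRBase 14 name miR-449c and is counted here as miR-449c.

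**Figure D5:**
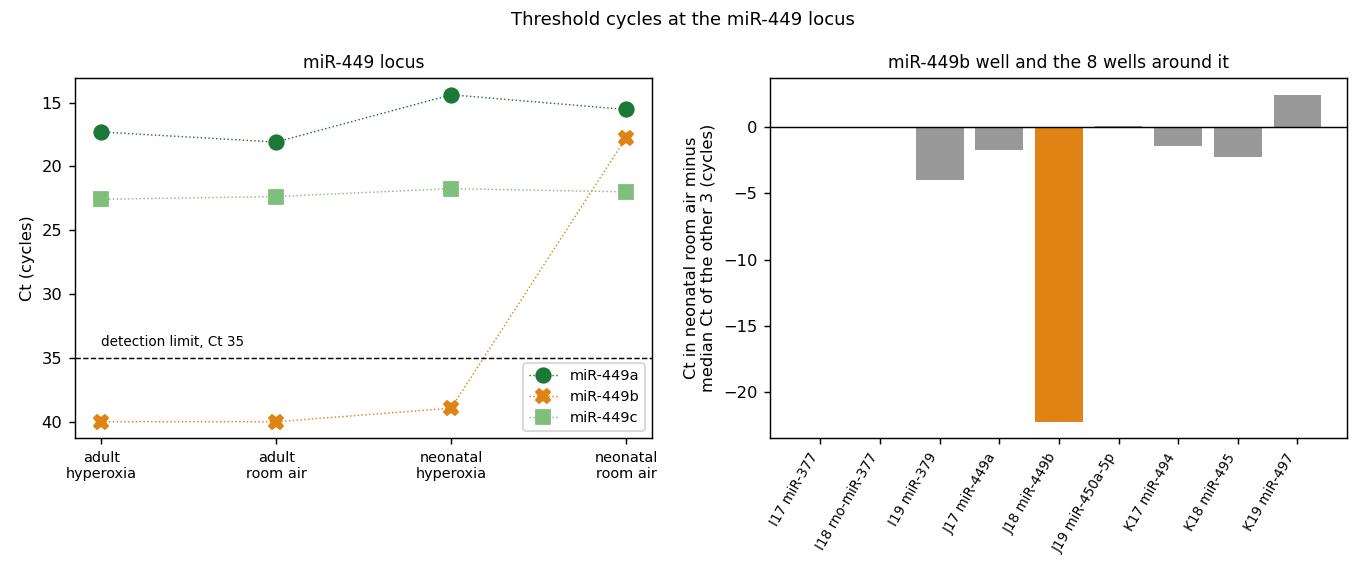
Left, Ct in cycles (vertical axis, reversed so that more RNA is up) of the 3 miR-449 assays in the 4 libraries. Right, Ct in neonatal room air minus the median Ct of the other 3 libraries (bars, in cycles) for the miR-449b well and the 8 wells around it, where J18 stands at -22.2 and the others between -3.97 and 2.44.

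The other miRNAs known from human cells to respond to p53 lay near the median of all assays after hyperoxia in neonates. The list held miR-192, miR-194 and miR-215, miR-107, miR-200c, and miR-16, miR-143 and miR-145, whose maturation p53 is known to assist. In neonates 7 of 8 were above 0 after hyperoxia, with a median of 0.18 log2 against 0.13 over all assays, and 1 of 8 passed 2-fold (miR-200c, 1.21, an epithelial miRNA), where 22.2% of all assays did. The rest were miR-16 at 0.39, miR-145 at 0.36, miR-215 at 0.21, miR-107 at 0.15 (0.145), miR-143 at 0.09, miR-192 at 0.02 and miR-194 at -0.57. In adults 1 of 8 was above 0 after hyperoxia (miR-192, 0.13), with a median of -0.31 against -0.14 over all assays. All 8 were read on the first card, whose median was -0.29 in adults and 0.235 in neonates. The list thus lay near the median of its card at both ages. In adults 2 of 8, miR-200c (-1.26) and miR-107 (-1.03), were past 2-fold lower, where 36 of 448 assays were. Over all assays 13.2% passed 2-fold in either direction. The fit called 0 of 8 for oxygen and 0 of 8 for age (limma, Benjamini-Hochberg adjusted over all assays), with 0 and 2 at an unadjusted p under 0.05. Over all 426 assays the fit called 0% for oxygen, and 4.46% higher and 27.9% lower for age, with 13 and 211 at an unadjusted p under 0.05.

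The epithelial markers were mostly above 0 in the neonatal oxygen comparison, without passing 2-fold more often than other assays. In the adult oxygen comparison most were below 0. Of miR-200a, miR-200b, miR-200c, miR-141, miR-429 and miR-205, 5 of 6 were above 0 after hyperoxia, with a median of 0.56 log2 and 1 of 6 past 2-fold, where 22.2% of all assays were, and the limma fit called 0 of 6 for oxygen. All 6 were read on the first card, whose median was 0.235 in neonates and -0.29 in adults. In adults 1 of 6 was above 0 after hyperoxia, with a median of -0.49 log2. Past 2-fold lower in adults was 1 of 6 (miR-200c, -1.26), where 36 of 448 assays were. The log2 of the summed level of the 6 markers was -1.03 in adult hyperoxia, -0.19 in adult room air, 0.22 in neonatal hyperoxia and -0.66 in neonatal room air. This sum adds assays whose PCR efficiencies may differ, and miR-200c was its largest term in every library. Each of the 6 was detected in every library. Their part in the miR-34a and miR-449a differences was not tested. With age in room air 3 of 6 were above 0, and 2 of 6, miR-205 (-2.55) and miR-429 (-1.16), were past 2-fold lower, where 44.1% of all assays were. With age in hyperoxia 0 of 6 were above 0, with a median of -1.26 log2 against -0.95 for their card. There 3 of 6 were past 2-fold lower, where 49.3% of all assays were. In the fit 1 of 6, miR-205, a miRNA of basal epithelial cells, fell with age (limma, adjusted p = 0.0395), where 27.9% of all assays were called lower.

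For markers of other cells, past 2-fold in the neonatal oxygen comparison were 0 of 4 leukocyte, 0 of 3 erythroid, 2 of 4 striated muscle and 0 of 2 endothelial miRNAs, where 22.2% of all assays were, and the fit called 0 in each list for oxygen. Medians were 0.39 log2 for 4 leukocyte miRNAs, -0.69 (-0.685) for 3 erythroid, 0.87 for 4 of striated muscle and 0.38 for 2 of endothelium. Of the muscle miRNAs 3 of 4 were above 0, with miR-133a (1.29) past 2-fold higher and miR-206 (-1.03, -1.025) past 2-fold lower, and their part in the miR-34a difference was not tested. For age in room air the medians of these 4 lists, in the same order, were 0.98, -1.03, 0.18 and 0.28, against -0.72 over all assays. Of the 3 erythroid miRNAs 2 were past 2-fold lower in the adult (miR-144 at -1.39, miR-486 at -1.03). Of the 4 of striated muscle 1 was past 2-fold lower (miR-206, -3.36), where 44.1% of all assays were. Of the 4 leukocyte miRNAs 2 were past 2-fold higher in the adult, where 15.9% of all assays were. These were miR-142-3p (1.08) and miR-142-5p (1.18), the opposite arms of 1 hairpin. The others were miR-150 at 0.87 and miR-223 at -0.03. For age in hyperoxia 0 of 4 leukocyte miRNAs were past 2-fold, with a median of 0.25 log2, where 10.9% of all assays were higher. There 3 of 4 striated muscle miRNAs were past 2-fold lower, where 49.3% of all assays were. What the leukocyte miRNAs contribute to the miR-34a difference was not tested.

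The assays with the most similar profiles over the 4 libraries were found by the root mean square difference of levels, each profile centred on its own mean, among the 425 other assays detected everywhere. Nearest to miR-34a were assays named for rat miR-220 (0.15 log2) and rat miR-125b* (0.18) and that of miR-187 (0.22). Of its own family, miR-34b-3p ranked 10th (0.27), miR-34b-5p 14th (0.32) and miR-34c 35th (0.41), whereas miR-449c ranked 295th and miR-449a 349th. Nearest to miR-449a were the assays of rat miR-28* (0.13), mouse miR-28* (0.19) and miR-495 (0.20), and miR-449c ranked 76th (0.81). These ranks use the deposited scale alone. miR-34a and miR-449a are on the first card, while the rat miR-220, rat miR-125b*, miR-34b-5p, miR-449c and both miR-28* assays are on the second. The reference does not cancel between cards, and the adult room air offset of 0.225 cycles exceeds the smallest distances. Ranks under other scalings were not computed. With 4 libraries this is a description of these profiles.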

How the data were processed

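Per the labels' protocols, cDNA of right lungs was made from total RNA with Megaplex primers, preamplified, and measured by TaqMan PCR on a pair of cards. The authors deposited, per the file headers, threshold cycles and their difference from snoRNA202, both in cycles, a log2 unit in which less RNA gives a higher value. A well with no crossing holds 40. The sources used here do not give the instrument software or thresholds. Both deposited tables held the same Ct values. In adult room air the second card was referred to the first card's snoRNA202, 0.225 cycles lower than its own.

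Libraries were grouped by title. Depth in reads does not exist for this assay, and the number of cards limits precision. Differences of at least 1 log2 unit were counted. All 426 assays entered 1 limma model (version 3.58.1, R 4.3.3, lmFit and eBayes) with additive terms for age and oxygen, Benjamini-Hochberg adjustment and a threshold of 0.05, and tested on simulated data. Technical SD was the root mean square gap between cards of U6, snoRNA135, U87 and Y1, divided by the square root of 2. Named were the members, other assays of their loci, the fixed lists, the 3 nearest profiles and the wells around miR-449b. Members, lists and rules were chosen with earlier results of these data known. Alternatives were 5 other scalings, a Ct limit of 32 or none, 1.5 log2 units and a robust prior.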

Additional observations from a re-analysis of the deposited data

Results flagged for a closer look

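For 4 assays the oxygen difference had opposite signs in the adult and the neonatal pair. The adult minus neonatal value was -1.26 log2 for miR-34b-3p (-0.52 in adults, 0.74 in neonates), -0.74 for rat-named miR-34b (-0.39 and 0.35), -0.43 for miR-34c (-0.19 and 0.24) and 0.57 for miR-449c (0.12 and -0.45). The signs depended on the scaling: over 6 scalings the adult difference was above 0 in 1 for miR-34b-3p, 0 for rat-named miR-34b, 4 for miR-34c and 1 for miR-449c, and the neonatal one in 6, 6, 6 and 1. So in most scalings miR-34c and miR-449c had the same sign at both ages. With snoRNA202 of its own card as reference, the adult difference of miR-449c was -0.10, below 0 as in neonates. The technical SD of such a value was 0.42. With 1 library per group these differences were not tested.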

How the results depend on the processing

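Counts of members past 2-fold depended on the scaling. For oxygen in neonates the 1 higher member became 0 with each card centred on its median and 0 at 1.5 log2 units, and the 0 lower became 1 (miR-449b) with no detection filter. For age in room air, 3 higher became 0 at 1.5 log2 units. They became 4 with library means, U6, snoRNA135 and snoRNA202, or card medians. The 2 lower in room air became 1 with library means, 0 with U6 and 3, with miR-449b, with no detection filter. For age in hyperoxia, 0 higher became 4 with library means, U6 or card medians and 1 with snoRNA135 and snoRNA202. The 2 lower in hyperoxia became 1 with library means, U6 or card medians and 3, with miR-449b, with no detection filter. In the fit, 0 members called higher with age became 4 with library means, U6 or card medians and 1 with snoRNA135 and snoRNA202. The 2 called lower became 1 with library means, 1 with card medians, 0 with U6 and 0 with no detection filter, which adds assays at Ct 40 to the fit. The adult minus neonatal oxygen value of miR-34a, -1.08, became -0.25 with library means and -0.56 with card medians. The causes were not tested. No member past 2-fold or called by the fit changed sign under any alternative run. Gaps between assays of 1 card were the same under the deposited scaling and the 5 others. No paired analysis was possible because each group has 1 library, and no replicate could be left out. The precision of late wells was not measured.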
